A study of Arabidopsis thaliana and Setaria viridis and Zea mays with 22 samples.

Results

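Cluster 13 of the grass root atlas is a group of cells that the authors' clustering placed together. It comprised 1674 of the 43212 cells and nuclei (3.87%) in the 13 grass libraries used here, and was taken as every entry that the deposited table assigns to cluster 13 of 19. The table holds no gene values and the labels give no tissue for the cluster, so it is called by its number throughout. It was chosen by the number of transcripts counted in its cells, as unique molecular identifiers (UMIs, 1 for each transcript captured), which was high in Setaria protoplasts relative to nuclei. All values of Setaria protoplasts against Setaria nuclei, and all values of the cluster against other clusters of the same library, are therefore given as descriptions without a test.

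The libraries came from untreated root tips of 3 grasses, run as single cells or single nuclei on the 10x Chromium 3' platform. Maize (Zea mays, strain B73) had 4 nuclei libraries. Sorghum (Sorghum bicolor, strain Btx623) had 1 protoplast library and 3 nuclei libraries. Setaria viridis (strain A10.1), a small wild grass, had 3 protoplast and 2 nuclei libraries. Tips were cut at 0.5 cm in maize and sorghum after 7 days of growth, and at 0.2 cm in Setaria after 15 days, although the age tag of every sample reads 10 days. The labelled chemistry was version 3 for sorghum nuclei, Setaria nuclei and Setaria protoplast replicates 2 and 3, and version 2 for the rest. If these labels hold, preparation and chemistry cannot be told apart in sorghum, nor can maize and its chemistry among the nuclei. Setaria cannot be told apart from its days of growth and tip length in any comparison with maize or sorghum. No label tells whether the libraries within a group were grown apart, so a p-value here reflects library-to-library spread alone, and that may be technical.

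A grass root tip holds dividing cells behind a root cap, and behind them the files of epidermis, ground tissue and vascular cylinder take on their fates. Protoplasts are whole cells freed of their walls by enzymes, so they carry cytoplasmic as well as nuclear RNA, and only cells whose walls are digested and that survive are recovered. Nuclei are released by lysis without wall digestion and carry nuclear RNA alone. The same cell type can therefore be common in one preparation and rare in the other, and its transcript count can stand differently against that of its neighbours.

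Libraries held 113 to 8551 cells and from 536441 to 175885808 UMIs. A pair of libraries stood apart. Maize nuclei replicate 1 had 113 nuclei, of which 2 were in cluster 13. The unnumbered Setaria protoplast library Set_Cells had a median of 3593 UMIs per cell, against 19938 and 22643.5 in Setaria protoplast replicates 2 and 3. It held 7 cells of cluster 13. As the sample left over in its group, it would be replicate 1, labelled version 2. Its cells shared 0 barcodes with any other library, while other pairs of libraries shared up to 20. The sorghum protoplasts, labelled version 2, shared 10 with Setaria nuclei replicate 1, labelled version 3. Whether the chemistry labels hold for each library was not tested. No barcode was in cluster 13 in more than 1 library. Values that rest on these sparse libraries are given with and without them.

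The cluster was present in all 13 libraries. Setaria supplied 1013 of its cells (60.5%), sorghum 460 (27.5%) and maize 201. Setaria nuclei alone supplied 754 cells, and the protoplast libraries of Setaria and sorghum supplied 259 and 30. In maize nuclei the cluster took 1.77%, 5.17%, 8.52% and 5.43% of replicates 1 to 4. In sorghum nuclei it took 4.68%, 4.20% and 4.24% of the libraries Sorgh_Nucl, Sorgh_Nucl1 and Sorgh_Nucl2. In Setaria nuclei it took 5.22% and 4.27% of replicates 1 and 2. The shares of sorghum and Setaria nuclei thus lay within a narrow band, and those of maize nuclei spread on both sides of it. The 95% Wilson interval of maize replicate 1 ran from 0.487% to 6.22%, which holds every share measured in sorghum and Setaria nuclei, whereas that of maize replicate 3 ran from 6.90% to 10.5% and lay above all of them. Intervals cover counting error only.

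**Figure D1:**
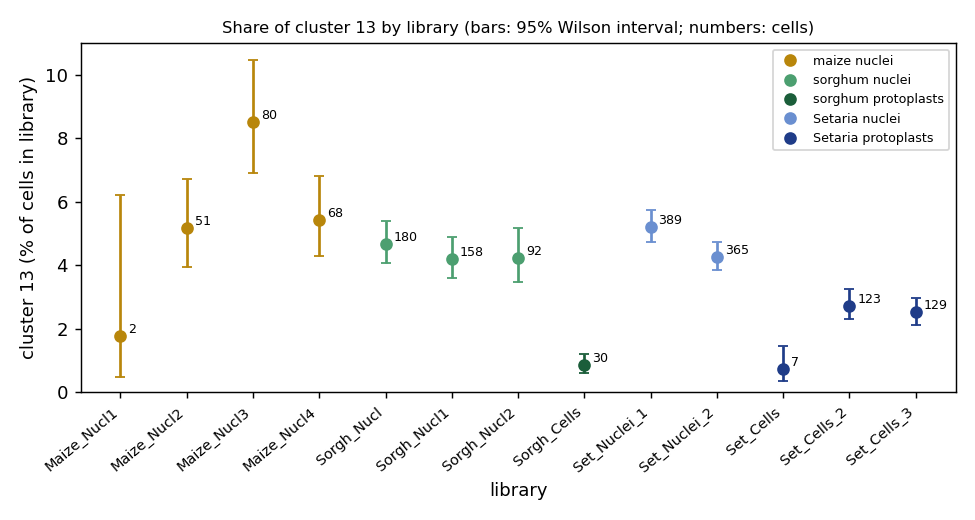
Share of cluster 13 in each of the 13 grass libraries, in percent of the library's cells on the vertical axis. Points are shares, bars are 95% Wilson intervals and the numbers beside them are cells of cluster 13. Protoplast libraries of both species lie between 0.714% and 2.73%, and all nuclei libraries but maize replicate 1 lie between 4.20% and 8.52%.

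Sorghum gave the contrast between preparations in a species other than the one whose values the choice of the cluster rested on. Earlier results of these data were known when that choice was made. Cluster 13 took 0.851% of the sorghum protoplasts (30 of 3524 cells, 95% Wilson interval 0.597% to 1.21%) and 4.37% ± 0.267 of sorghum nuclei (SD, n = 3). The protoplast library lay below all 3 nuclei libraries, a log2 fold of −2.36 (SE 0.77), or 5.12-fold lower. edgeR's quasi-likelihood test on cells per cluster gave an adjusted p of 0.00951, with 31.6% of the 19 clusters called in this contrast, so a call was common there. Having 1 library, sorghum protoplasts were assumed to vary as much as the groups with several. Where protoplasts had a spread of their own, as in what follows, it came from the Setaria protoplast libraries alone, Set_Cells included. When protoplasts and nuclei each had their own estimate of the spread (limma on log2 odds), the log2 fold was −2.39 and the adjusted p was 0.0752, which did not pass. Clusters 2 and 5, given beside it because their shares also differ between preparations, had log2 folds of −4.88 (SE 0.89) and −4.10 (SE 0.88). They were picked by that difference in these data, so their folds are given without a test. Cluster 4, given for the same reason, went the other way, with a log2 fold of 1.07 (SE 0.59). Whether cluster 13 differed from clusters 2, 4 and 5 in its fold was not tested.

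In Setaria the cluster took 0.714% of Set_Cells, 2.73% of protoplast replicate 2 and 2.52% of replicate 3. All 3 shares lay below those of both nuclei libraries. The mean was 1.99% ± 1.11 (SD, n = 3) in protoplasts and 4.74% ± 0.673 (SD, n = 2) in nuclei, a fitted log2 fold of −1.19 (SE 0.51). Without Set_Cells the protoplast mean was 2.62% ± 0.148 (SD, n = 2) and the log2 fold −0.86. If Set_Cells is replicate 1, labelled version 2, the mean over 3 libraries mixes chemistries. By number of cells, cluster 13 ranked 12th and 16th of 19 clusters in protoplast replicates 2 and 3, and 8th and 10th in the nuclei replicates.

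Between species the nuclei shares did not pass the test in any of the 3 contrasts. In those with Setaria, days of growth and tip length differ along with the species. The log2 fold was −0.38 (SE 0.45) for sorghum against maize, −0.26 (SE 0.50) for Setaria against maize and 0.12 (SE 0.51) for Setaria against sorghum, with edgeR adjusted p of 0.720, 0.743 and 0.877. The background was 0 in each of these contrasts: edgeR over all 13 libraries, DESeq2 and limma called 0 of 19 clusters, and edgeR gave 0, 1 and 0 clusters at an unadjusted p under 0.05 in the same order. Fitted to the compared groups alone, edgeR called 2 of 19 clusters for Setaria against sorghum, and without maize replicate 3 it called 1 for Setaria against maize, neither time cluster 13. With SEs near 0.5, only large differences in share were detectable. The direction of the Setaria against maize value turned without maize replicate 3, to 0.03, and that of Setaria against sorghum turned without Setaria nuclei replicate 1, to −0.04.

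In Setaria protoplast replicates 2 and 3, cluster 13 had the highest median UMIs of the 19 clusters. The median was 61488 UMIs and 7764 detected genes in replicate 2, and 61912 UMIs and 8261 genes in replicate 3. Cells of all other clusters in the same libraries had medians of 19403 and 22202 UMIs and of 4852 and 5020 genes. The cluster's median was thus 3.17 and 2.79 times that of the other cells in UMIs, and 1.60 and 1.65 times in genes. In Set_Cells, whose cells were shallower, the 7 cells had a median of 8752 UMIs against 3589 in the other cells, 2.44 times as many.

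No such difference was seen in nuclei of the same species. Setaria nuclei of the cluster had medians of 2326 and 2599 UMIs in replicates 1 and 2, and the other nuclei 2306 and 2550, ratios of 1.01 and 1.02. In sorghum nuclei the ratios were 0.919, 1.09 and 1.03 in Sorgh_Nucl, Sorgh_Nucl1 and Sorgh_Nucl2. In maize nuclei they were 1.14, 1.17 and 1.03 in replicates 2 to 4, and 2.27 in replicate 1 with its 2 nuclei. The sorghum protoplasts went the other way, with a median of 6846.5 UMIs in the cluster and 9747 in the other cells, a ratio of 0.702.

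**Figure D2:**
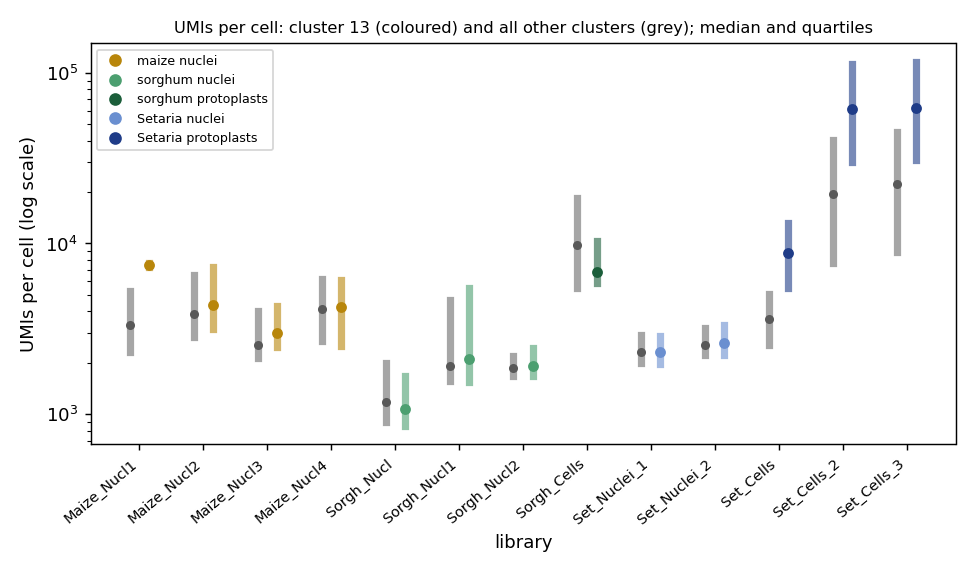
UMIs per cell on a logarithmic vertical axis for each library. Coloured points and bars are the median and the quartiles of cluster 13, and grey ones those of all other clusters of the library. The cluster stands above the other cells in the Setaria protoplast libraries, with medians of 61488 and 61912 in replicates 2 and 3, and below them in the sorghum protoplasts, at 6846.5.

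The cluster held a larger part of the Setaria protoplast transcripts than of the cells. It contributed 6.74% of all UMIs of replicate 2 from 2.73% of its cells, and 5.53% of the UMIs of replicate 3 from 2.52% of its cells. In Setaria nuclei the parts were nearly equal, with 5.02% and 4.22% of UMIs from 5.22% and 4.27% of nuclei. In the sorghum protoplasts it contributed 0.568% of UMIs from 0.851% of cells. In Set_Cells it contributed 1.61% of UMIs from 0.714% of cells, so its part of the UMIs exceeded its part of the cells in all 3 Setaria protoplast libraries.

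Within the Setaria protoplasts the cluster was concentrated at the top of the UMI range and was not absent below. Among cells of at least 100000 UMIs, 37 of 231 in replicate 2 (16.0%, 95% Wilson interval 11.8% to 21.3%) and 44 of 323 in replicate 3 (13.6%, 10.3% to 17.8%) belonged to it. These shares were 5.88 and 5.41 times its share of the whole library, the highest ratio of the 19 clusters in both libraries. Clusters 9 and 0 followed, at 4.25 and 3.80 times in replicate 2 and 4.54 and 3.75 times in replicate 3. Among cells under 10000 UMIs, cluster 13 took 0.788% and 1.27%. From 10000 to 20000 UMIs it took 0.810% and 0.747%, from 20000 to 50000 UMIs 2.83% and 1.91%, and from 50000 to 100000 UMIs 4.49% and 3.50%. The share thus rose with UMIs in both libraries above 20000 UMIs.

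The same view by deciles of UMIs within each library removes the difference in depth between libraries. In Setaria protoplast replicates 2 and 3 the highest decile held 52 of the 123 and 53 of the 129 cells of the cluster (42.3% and 41.1%), and cluster 13 made up 11.5% and 10.4% of that decile. In the 5 lower deciles it made up 0.797% and 1.05% of cells. In Set_Cells 4 of its 7 cells lay in the highest decile. In Setaria nuclei 6.68% and 10.1% of its nuclei lay there, and in sorghum nuclei 12.2%, 13.3% and 15.2%. In maize nuclei replicates 2 to 4, 15.7%, 6.25% and 11.8% lay there. In maize nuclei replicate 3 the cluster lay more in the 5 upper deciles, with 56 nuclei against 24 in the 5 lower ones. It was not concentrated at the top there, where the highest decile held 5. In maize replicates 2 and 4 the 5 upper deciles held 31 and 37 nuclei, against 20 and 31 in the 5 lower ones. Of the 30 sorghum protoplasts, 1 was in the highest decile and 20 were in the 5 lower deciles.

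**Figure D3:**
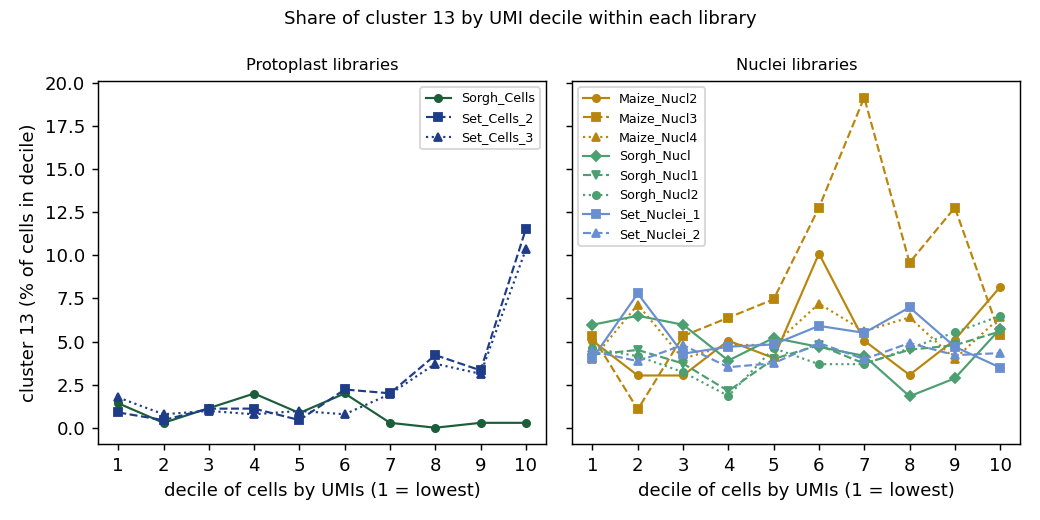
Percent of cells that belong to cluster 13 in each decile of UMIs, from the lowest (1) to the highest (10), in protoplast libraries (left) and nuclei libraries (right) with at least 10 cells of the cluster. Setaria protoplast replicates 2 and 3 reach 11.5% and 10.4% in the highest decile, whereas the sorghum protoplasts stay at 0.284% there.

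Cells of the cluster also differed widely from each other in these libraries. The quartiles ran from 30059.5 (lower) to 113191 UMIs (upper) in replicate 2 and from 30747 to 116294 in replicate 3, a ratio of upper to lower quartile of 3.77 and 3.78. The lowest cells held 2592 and 2711 UMIs and the highest 239784 and 243740. The spread was not out of the ordinary there, since the interquartile range of log2 UMIs, 1.91 and 1.92, ranked 11th of 19 clusters in both libraries. In Setaria nuclei the quartile ratio was 1.46 and 1.50, in the sorghum protoplasts 1.76, and in sorghum nuclei 1.47 to 3.52, the last in Sorgh_Nucl1. The handling of doublets, 2 cells caught under 1 barcode, is unknown from the labels, and their part in the high UMI counts was not tested.

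To set libraries of different depth on 1 scale, the median log2 UMIs of a cluster was expressed relative to the median over the library's clusters. On this scale cluster 13 stood at 1.22 and 1.32 in Setaria protoplast replicates 2 and 3, the highest of 19 clusters in both. Cluster 9 was close behind in the same libraries, at 1.08 and 1.17. Cluster 13 stood at 1.33 in Set_Cells from 7 cells, where cluster 14 was higher at 1.42. In Setaria nuclei it stood at 0.05 and 0.01, near the middle of its library at ranks 9 and 8. The difference between protoplasts and nuclei, 1.24 (SE 0.15, n = 2 and 2), is the value by which the cluster was chosen. It was the largest of the 19 clusters, ahead of clusters 9 and 0 at 0.59 each. Clusters 2 and 5 lay at the other end with −1.71 and −1.88, and cluster 4 had −0.70.

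In the sorghum protoplasts the relative value of cluster 13 was −0.16, at rank 12, and in sorghum nuclei it was −0.04, 0.00 and 0.04. The difference of −0.16 (SE 0.18, 95% interval −0.56 to 0.24) did not pass limma's test, with an adjusted p of 0.503 and 36.8% of 19 clusters called in that contrast. Clusters 2 and 5 had sorghum values of −0.46 (SE 0.62) and −0.27 (SE 0.35), which did not pass either (limma adjusted p = 0.519 for each). Cluster 4 had 0.16 (SE 0.31), which did not pass (limma adjusted p = 0.627). The size depended on the reference. With the median of all cells in the library as reference, the difference was −0.52 (limma adjusted p = 0.0585), with cells of at least 2000 UMIs it was −0.37 (adjusted p = 0.141), and with clusters of at least 20 cells it was −0.46 and passed (adjusted p = 0.0118). In the last case clusters 2 and 5, with 15 and 16 sorghum protoplasts, left the reference.

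**Figure D4:**
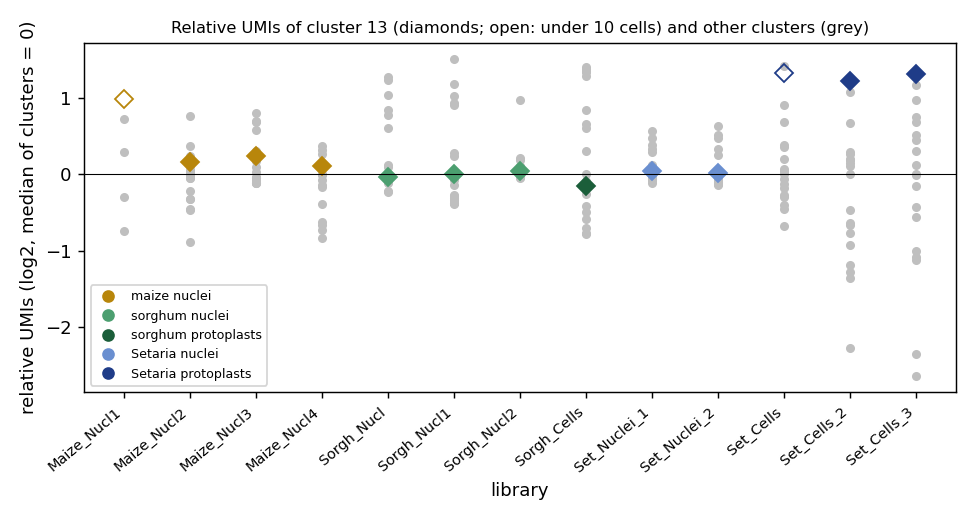
Relative UMIs (log2, with the median over clusters of a library at 0) of cluster 13 as diamonds and of other clusters with at least 10 cells as grey points, by library. Open diamonds rest on 2 cells in maize replicate 1 and 7 in Set_Cells. The cluster is the highest in Setaria protoplast replicates 2 and 3, at 1.22 and 1.32, and near 0 in sorghum and Setaria nuclei.

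Among nuclei the relative UMIs were 0.16, 0.24 and 0.10 in maize replicates 2 to 4, above all sorghum and Setaria nuclei libraries. The differences were −0.17 (SE 0.12) for sorghum against maize, −0.14 (SE 0.14) for Setaria against maize and 0.03 (SE 0.14) for Setaria against sorghum. None passed limma's test (adjusted p = 0.612, 0.633 and 0.979), the background being 0 in each contrast. At an unadjusted p under 0.05 there were 2, 1 and 0 clusters in the same order. In 4 alternatives, limma called 1 cluster for sorghum against maize, which was not cluster 13. The 95% intervals ran from −0.44 to 0.11, from −0.45 to 0.17 and from −0.29 to 0.34. Restricted to nuclei of at least 2000 UMIs, sorghum against maize turned to 0.11 and Setaria against sorghum to −0.18, and neither passed.

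The deposited table also lists UMIs after the depth correction of sctransform, which brings the cells of a library towards a common total. After it the cluster's median in Setaria protoplast replicates 2 and 3 was 20546 and 23761 corrected UMIs, beside 19750 and 22577 for the whole library. Its relative value fell to 0.03 in both, still the highest of 19 clusters. Corrected detected genes kept more of the difference, at 0.21 and 0.23 on the log2 scale and rank 2 in both, with medians of 5350 and 5708 corrected genes against 4617 and 4852 in the library. In the sorghum protoplasts the corrected values were −0.05 for UMIs, at rank 18, and −0.01 for genes, at rank 11.

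A cell with more UMIs shows more genes, so detected genes were also compared at equal UMIs, as the deviation in log2 genes from the running median of the same library. In Setaria protoplasts the median deviation of cluster 13 was 0.00 and 0.05 in replicates 2 and 3, and −0.01 in Set_Cells, close to that of other cells. The genes seen in its Setaria protoplasts were therefore near the number usual for their UMIs. It varied with depth, from 0.18 (11 cells) and 0.12 (18 cells) among cells under 10000 UMIs to −0.03 (37 cells) and −0.01 (44 cells) among those of at least 100000. From 10000 to 20000 UMIs it was 0.19 and 0.10, with 7 cells in each library. In Setaria nuclei it was 0.01 and 0.02.

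In the sorghum protoplasts all 30 cells of the cluster lay above the running median of their library. Their median deviation was 0.13, or 9.73% more genes than other cells with as many UMIs, the highest of 19 clusters. Clusters 14, 16 and 5 followed, at 0.11, 0.10 and 0.09. By depth cluster 13 had 0.14 in the 22 cells under 10000 UMIs and 0.12 in the 6 cells from 10000 to 20000 UMIs. Setaria protoplast values in the same ranges were 0.10 to 0.19. In sorghum nuclei the deviation was 0.01, 0.00 and 0.00. The difference of 0.13 (SE 0.02, 95% interval 0.08 to 0.18) passed limma's test with an adjusted p of 0.00276, where 21.1% of 19 clusters were called. When protoplasts and nuclei each had their own spread the adjusted p was 0.130 and the call was lost. In that setting limma called 0 of 19 clusters, and 3 had an unadjusted p under 0.05. Without Set_Cells, limma called 13 clusters instead of 4. The protoplasts' own spread came again from the Setaria libraries alone. The sorghum value itself stayed between 0.11 and 0.14 in the 17 alternatives run.

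**Figure D5:**
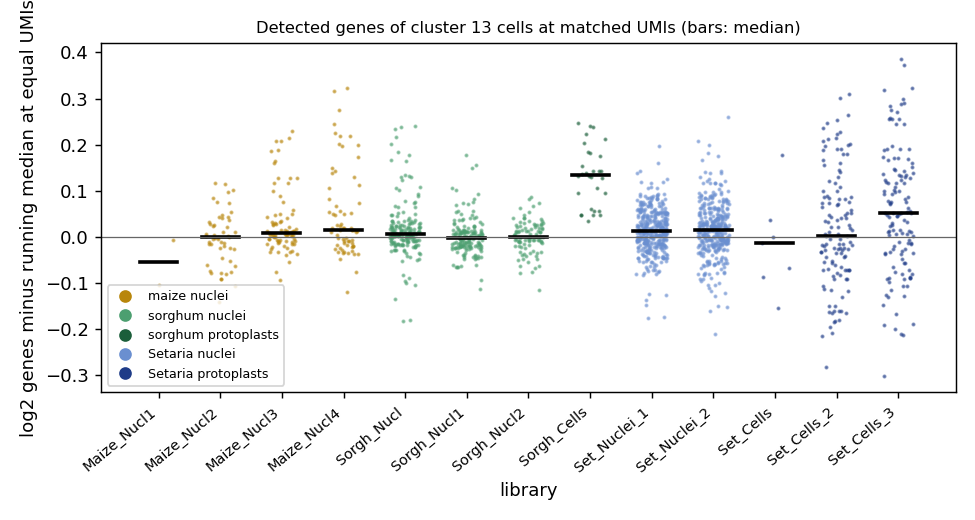
Deviation in log2 detected genes of each cluster 13 cell from the running median of its library at equal UMIs. Points are cells and black bars are library medians. The 30 sorghum protoplasts all lie above 0, at a median of 0.13, while nuclei libraries of at least 10 cells have medians between 0.00 and 0.02.

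Among nuclei the deviations of the cluster were 0.00, 0.01 and 0.01 in maize replicates 2 to 4. The differences between species were −0.01 (SE 0.02) for sorghum against maize, 0.01 (SE 0.02) for Setaria against maize and 0.01 (SE 0.02) for Setaria against sorghum. None passed limma's test (adjusted p = 0.959, 0.870 and 0.670), with a background of 0 in each contrast and 0, 2 and 0 clusters at an unadjusted p under 0.05. The 95% intervals were −0.04 to 0.03, −0.03 to 0.05 and −0.03 to 0.05. The background depended on the setting. When protoplasts and nuclei each had their own spread, limma called 3 of 18, 8 of 18 and 10 of 19 clusters in the same order, and without Set_Cells it called 3, 4 and 6. Cluster 13 was not among them.

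Lowest UMIs per cell differed between libraries and limit these comparisons, at 650 to 1318 in sorghum nuclei, 1461 to 1555 in those of maize, 2735 in the sorghum protoplasts, 1611 to 2505 in those of Setaria, and 993 and 1069 in Setaria nuclei. The lowest cell of cluster 13 in the sorghum protoplasts held 2977 UMIs and in Setaria protoplast replicates 2 and 3 it held 2592 and 2711, just above the lowest cell of each library.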

How the data were processed

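Per the labels' protocols, protoplasts and nuclei of root tips were run with the 10x Chromium 3' kit, versions 2 and 3. Per the submitters' processing notes, Cell Ranger 5.0.1 and Seurat 4.0 were used. The sources used here do not give cell filters, doublet treatment or grass genome builds. The authors deposited, for every cell, a count of UMIs and of detected genes, both again after sctransform as a depth-corrected score, and, per the file headers, the cluster at resolution 0.6 of integrated data. From 47536 entries, 4324 cells of 3 maize protoplast libraries of another study were left out. The separate Arabidopsis table was not used here.

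The library was the replicate. The names of Set_Cells and the 3 sorghum nuclei libraries do not settle their replicate numbers, so only their group was used. For shares, edgeR 4.0.16 was fitted to cells per cluster over all 13 libraries, by quasi-likelihood with robust, untrended dispersion and total cells as library size. The SE of a share's log2 fold was derived from that test, as the size of the fold divided by the square root of the test's F statistic. Relative UMIs and genes at matched UMIs were tested with limma 3.58.1 (robust), for clusters of at least 10 cells in a library. The running median used up to 20 UMI bins of at least 25 cells, joined by straight lines. P-values were two-sided and adjusted by Benjamini-Hochberg over the clusters of a contrast, with a threshold of 0.05. DESeq2 1.42.0 was an alternative. Scripts were tested on simulated data. At 0 counts, 3 counts of 113 nuclei would allow a share of up to 2.65%. Wilson intervals for shares extended on average 0.308 to 2.87 percentage points to each side. No gene is named, since no gene values were used. Clusters 2, 4 and 5 were given beside cluster 13 only where a value was compared. The cluster and the measures were chosen with earlier results of these data known.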

Additional observations from a re-analysis of the deposited data

Results flagged for a closer look

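The relative UMIs of cluster 13 had opposite signs of the difference between protoplasts and nuclei in Setaria and sorghum, and the sorghum difference did not pass its test (limma adjusted p = 0.503). All 3 Setaria protoplast libraries lay above both nuclei libraries, with a difference of 1.24 on the log2 scale, whereas the sorghum protoplast library lay below all 3 sorghum nuclei libraries, with a difference of −0.16. The Setaria difference rests on replicates 2 and 3, since Set_Cells held 7 cells of the cluster. The difference between the species was not tested, because the cluster was chosen by its Setaria value, and sorghum had 1 protoplast library with 30 cells of the cluster. Median UMIs per cell of the whole library were 9663 in the sorghum protoplasts and 19938 and 22643.5 in Setaria protoplast replicates 2 and 3. Sorghum protoplasts were labelled version 2 and sorghum nuclei version 3, while these Setaria replicates and Setaria nuclei were labelled version 3. Days of growth and tip length also differed between the species. The part of depth, chemistry, growth or tip length in the difference was not tested.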

How the results depend on the processing

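For sorghum protoplasts against nuclei, the log2 fold in share ran from −2.66 to −2.27 over 18 alternatives and lost its call in 1 (−2.39, limma with a spread of its own per preparation). Relative UMIs gained a call with clusters of at least 20 cells (−0.46), and genes at matched UMIs lost theirs with a spread of its own per preparation (0.13), an alternative chosen after seeing the data. Relative UMIs of Setaria protoplasts against nuclei moved to 1.52 against the median over all cells. Directions turned at cells of at least 3000 UMIs for the Setaria against sorghum nuclei share (−0.23). At cells of at least 2000 UMIs they turned for relative UMIs (0.11 for sorghum against maize, −0.18 for Setaria against sorghum) and genes at matched UMIs (0.011 and −0.0080, in the same order), and none of these passed.

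Leaving out 1 library at a time, the sorghum preparation values ran from −2.39 to −2.30 in share, −0.18 to −0.14 in relative UMIs and 0.13 to 0.14 in matched genes, with every call on its side of the threshold. The only sorghum protoplast library could not be left out, so these ranges do not show how far the values rest on it. Nuclei shares ran from −0.54 to −0.09 (sorghum against maize), −0.42 to 0.029 (Setaria against maize, turned without maize replicate 3) and −0.036 to 0.25 (Setaria against sorghum, turned without Setaria nuclei replicate 1). The Setaria preparation values ran from −1.45 to −0.86 in share, 1.19 to 1.29 in relative UMIs and −0.01 to 0.04 in matched genes.

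In the sorghum preparation contrast, clusters called by share numbered 6, but 11 with only sorghum libraries fitted, 10 without Set_Cells and 2 by limma on log2 odds. For relative UMIs they numbered 7, with 3 under a spread of its own per preparation, and for matched genes 4, with 13 without Set_Cells, 7 among clusters of at least 20 cells and 0 under that spread.

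Correlations of same-numbered libraries across groups ran from −0.32 to 0.10 and gave no sign of pairing by replicate number. Most were between maize and Setaria, and with few libraries per group they cannot exclude pairing. With the replicate block, Setaria against maize nuclei gave −0.01 in share, −0.14 in relative UMIs and 0.03 in matched genes, and Setaria protoplasts against nuclei −1.18, 1.21 and 0.00, with no call changed. The causes of these changes were not tested. Cells of cluster 13, 2 to 389 per library, limit the precision.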
